A study of Mus musculus with 8 samples.

Results

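The 10 genes described here encode transcription factors known to drive or to mark the change of vascular smooth muscle cells from a contractile to a modulated state. They are the Krüppel-like factors Klf2, Klf4 and Klf5, the MEF2 factors Mef2a, Mef2c and Mef2d, the bHLH factors Tcf21 and Twist1, the homeobox factor Prrx1 and the zinc finger repressor Zeb2. They were listed by symbol for this known role, but with earlier results of these data known, so the choice was not blind to the values. All 10 were among the 18533 genes of the count tables and among the 13535 genes that passed the filter on low counts.

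RNA-Seq was performed on mouse aortic smooth muscle cells (MASMCs), which are primary cells released by collagenase from aortas of juvenile male mice after the adventitia and endothelium had been stripped. The cells came from WT mice (n = 4 samples) or from Hint1-/- mice (n = 4 samples), a line that lacks Hint1 throughout the body and not only in smooth muscle. Every sample of both genotypes had received platelet-derived growth factor BB (PDGF-BB) at 20 ng/ml for 24 h, and no sample without PDGF-BB was analysed here. The labels do not say whether the samples of a genotype came from separate mice or cultures, so the p-values measure only the spread between these samples, which may be technical.

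PDGF-BB is a classical signal for smooth muscle modulation. In contractile cells, serum response factor (SRF) and its coactivator myocardin bind CArG boxes and drive actin and myosin genes, and MEF2 factors act with them at muscle genes. Klf4 is known to repress contractile genes in modulated cells, Klf5 is known from the growing cells of injured vessels, and Klf2 is best known from endothelium exposed to flow. Tcf21 belongs to the fibroblast and epicardial lineages and marks smooth muscle cells that take on fibroblast features, whereas Twist1, Zeb2 and Prrx1 are known from mesenchymal cells and from the epithelial-mesenchymal transition.

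The promoters of 3 of these genes are shown because Tcf21 and Klf4 were the members whose samples separated by genotype and Klf2 is a relative of Klf4 that did not. Klf5, another such relative, had no promoter in the RefSeq set used. The sequences are those of RefSeq on GRCm38.p6, read 5′ to 3′ on the strand of the gene. Each run ends at the most upstream start in RefSeq or GENCODE and reaches back to 250 bases before the RefSeq start. It therefore holds 219 bases for Tcf21 (chr10:22820175-22820393, minus strand), 250 bases for Klf4 (chr4:55532476-55532725, minus strand) and 221 bases for Klf2 (chr8:72318812-72319032, plus strand). Capitals mark the E-boxes CANNTG in the run of Klf4 and the MEF2 box in the run of Klf2, and the run of Tcf21 holds neither and has no capitals.
Tcf21: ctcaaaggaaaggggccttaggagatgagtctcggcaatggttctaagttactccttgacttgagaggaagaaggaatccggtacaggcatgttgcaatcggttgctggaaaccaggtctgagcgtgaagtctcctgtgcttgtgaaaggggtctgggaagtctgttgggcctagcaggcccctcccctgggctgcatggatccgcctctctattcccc
Klf4: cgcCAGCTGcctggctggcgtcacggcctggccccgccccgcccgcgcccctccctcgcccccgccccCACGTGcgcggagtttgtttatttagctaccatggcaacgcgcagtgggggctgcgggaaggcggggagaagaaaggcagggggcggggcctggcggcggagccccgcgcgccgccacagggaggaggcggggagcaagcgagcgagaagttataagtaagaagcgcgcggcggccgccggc
Klf2: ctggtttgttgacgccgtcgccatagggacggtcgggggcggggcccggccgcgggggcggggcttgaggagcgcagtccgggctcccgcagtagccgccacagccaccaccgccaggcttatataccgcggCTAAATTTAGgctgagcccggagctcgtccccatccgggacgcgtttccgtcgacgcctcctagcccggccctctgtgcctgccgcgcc

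The Klf4 run was rich in G and C (74.0%) and held 2 E-boxes, the class of sites to which bHLH factors bind. The first, CAGCTG, began 247 bases before the RefSeq start and the second, CACGTG, began 182 bases before it. The Klf4 run also held 4 GC boxes (GGGCGG on either strand) and 1 AP-2 motif (GCCNNNGGC). The Tcf21 run had 54.8% G and C and held none of the motifs searched, which says only that these letters are not in this window. The Klf2 run had 71.5% G and C, no E-box and 1 MEF2 box, which began 118 bases before the RefSeq start. It held 2 GC boxes as well.

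RefSeq held a promoter for 9 of the 10 genes, with 14 windows in all. Both strands of the 250 bases before each start were searched. A CANNTG E-box lay in at least 1 window of 2 of the 9 genes (Klf4 and Mef2c), compared with 66.2% of all 32851 mouse windows of the same length. The GC box GGGCGG lay in windows of 6 of the 9 genes, compared with 32.7% of all windows, the AP-2 motif GCCNNNGGC in windows of 3 (Klf4, Mef2d and Zeb2), compared with 13.7%, and the MEF2 box in 1, compared with 2.92%. CACGTG is one form of CANNTG and lay in 6.02% of all windows. No window of these genes held a CArG box, which lay in 1.47% of all windows. Genes with several windows had more chances of a match, and a match is a description of the letters and no evidence of binding.

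The libraries held 20778077 to 20888041 estimated counts. Hint1 was lower in every sample from the Hint1-/- line, at 713 to 778 counts compared with 2272 to 2364 in WT, a log2 fold change of -1.64 ± 0.04 (SE; edgeR, adjusted p = 6.77e-16). The deleted part of Hint1 is not given in the sources used here. Markers of smooth muscle were present in all samples. Acta2 was at 15956 to 17855 counts in WT and 11640 to 12331 in Hint1-/- samples, and Myh11, a defining marker of mature smooth muscle, at 406 to 456 and 136 to 152. The 8 smooth muscle markers summed to 1367 to 1486 CPM (counts scaled to the library's size) in WT and to 1123 to 1214 CPM in Hint1-/- samples, with 6 lower and 1 higher. Markers of other cell types were present too. The 10 macrophage markers summed to 2144 to 2462 CPM in WT, compared with 1758 to 1879 CPM in Hint1-/- samples, the 9 adventitial fibroblast markers to 2335 to 2395 and 3175 to 3370 CPM, the 8 mesothelial and epicardial markers to 373 to 400 and 481 to 503 CPM, the 5 Schwann cell markers to 38.2 to 43.6 and 8.51 to 10.8 CPM, and the 12 endothelial markers to 8.53 to 11.2 and 9.09 to 11.2 CPM. Single genes carried most of the difference in the fibroblast and the mesothelial and epicardial sums, Dcn (1112 CPM on average in WT and 1975 in Hint1-/- samples) and Aldh1a2 (356 and 459 CPM), and the fibroblast list's median log2 fold change was -0.03. No listed marker was at 0 in every sample. In such bulk samples, fewer cells of a type and less RNA per cell cannot be told apart.

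Of the 10 factors, Tcf21, Klf4 and Zeb2 passed the limit on the adjusted p (0.05), all 3 at a higher level in Hint1-/- MASMCs, and none passed at a lower level. Tcf21 also exceeded the fold change of 1.5. Across all 13535 genes tested, 21.5% passed the limit on the adjusted p, 11.2% at a higher and 10.2% at a lower level in Hint1-/- samples, and 2.83% also exceeded the fold change. With 10 genes, 3 past the limit and 1 also past the fold are near those shares. For 2 of the 10 factors (Klf4 and Tcf21) WT and Hint1-/- samples stood fully apart, compared with 23.0% of all genes tested. The median log2 fold change of the 10 factors was 0.05, and that of all genes tested was 0.00031. The counts depended on the setting for Zeb2, described below, and the 7 other factors did not pass.

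**Figure D1:**
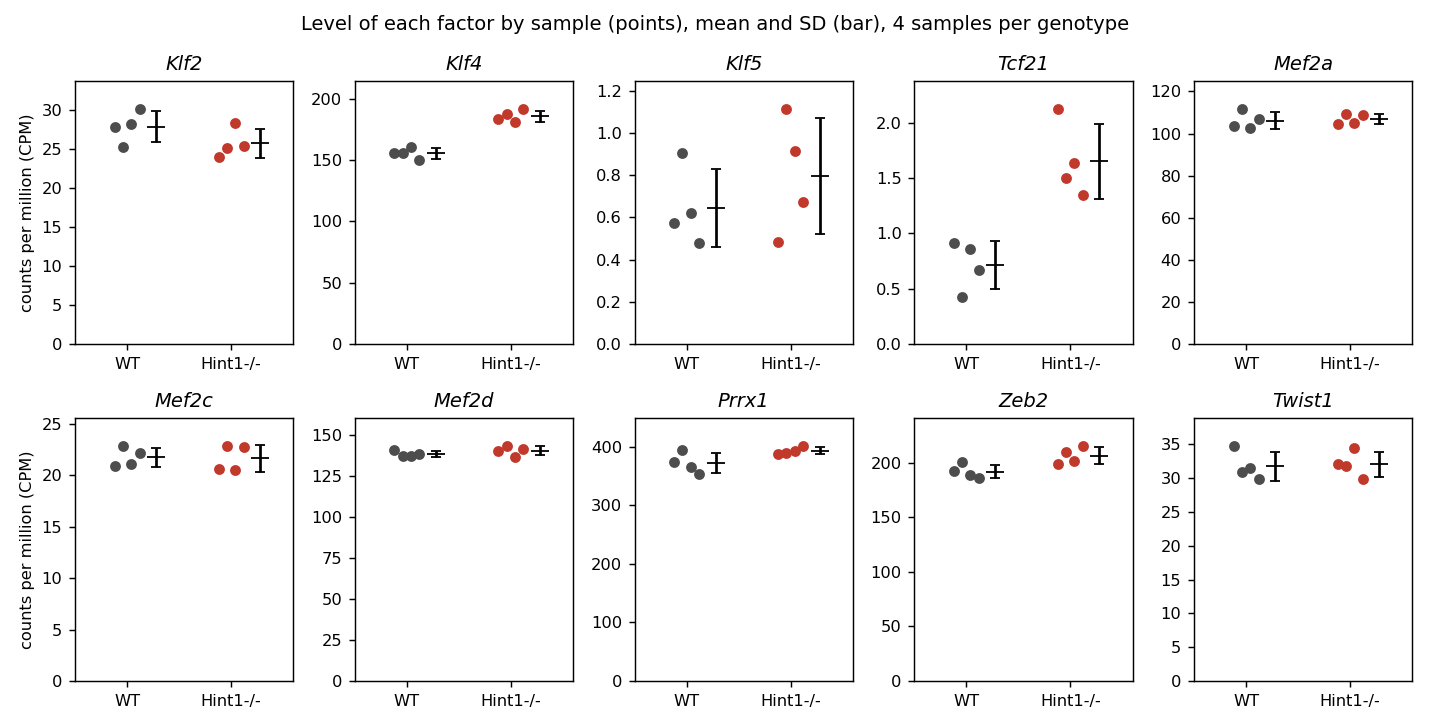
CPM (y axis, from 0) of each of the 10 factors in the 4 WT (gray) and 4 Hint1-/- (red) MASMC samples; points are samples, and the bar beside them is the mean with its SD. The points of the genotypes are separate for Klf4 and Tcf21 and overlap for the other 8 factors.

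**Figure D2:**
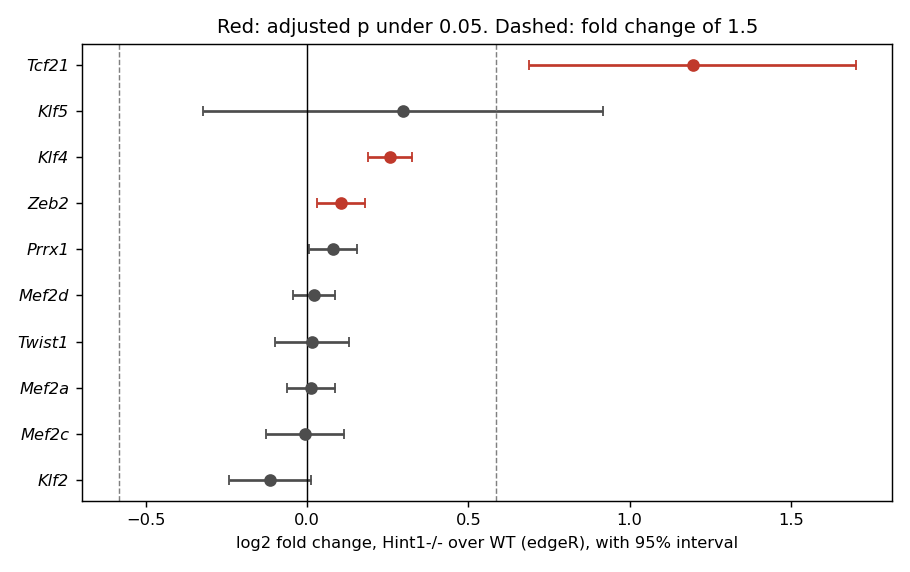
Log2 fold change of each factor (Hint1-/- over WT, x axis) with its 95% interval from edgeR; red marks an adjusted p under 0.05 and the dashed lines mark a fold change of 1.5. Tcf21 lies at 1.20, beyond the dashed line, whereas Klf4 (0.26) and Zeb2 (0.10) lie between the lines.

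Among the Krüppel-like factors, Klf4 was the factor with the smallest p of the 10. Klf4 (chr4:55527143-55532466, minus strand, GENCODE M21 on mm10, as for the positions that follow) had 3256, 3268, 3353 and 3128 counts in WT samples 1 to 4 and 3811, 3872, 3766 and 3974 counts in Hint1-/- samples 1 to 4. The lowest Hint1-/- sample lay above the highest WT sample. The mean rose from 156 ± 4.30 CPM to 186 ± 4.45 CPM (SD, n = 4 each), a fold of 1.20 (95% interval 1.14 to 1.25) and a log2 fold change of 0.26 ± 0.03 (SE; edgeR, adjusted p = 1.28e-05). The interval lay below a fold change of 1.5. The log2 fold change ranged from 0.24 to 0.27 over all 17 alternative settings, and all 17 kept it past the limit. The macrophage markers, whose cells also can express Klf4, were lower in Hint1-/- samples in 6 of the 9 tested and higher in 1 (C1qc), and their part in the Klf4 level was not tested. C1qc was at 5 to 10 counts in WT and 11 to 17 in Hint1-/- samples and passed the filter on low counts through the latter, C1qb of the same complex did not pass the test (adjusted p = 0.332 in edgeR) and C1qa was not tested.

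Klf2 (chr8:72319033-72321656, plus strand) did not pass the limit on the adjusted p. Klf2 had 579, 529, 588 and 627 counts in WT samples 1 to 4 and 497, 520, 587 and 526 counts in Hint1-/- samples 1 to 4. The genotypes overlapped, with Hint1-/- samples 3 and 4 inside the range of WT after scaling by library size. The log2 fold change was -0.11 ± 0.06 (SE; edgeR, adjusted p = 0.201), and the 95% interval of the fold ran from 0.846 to 1.01. Of the 12 endothelial markers, 7 could be tested and none passed, and Cdh5, the endothelial cadherin, was at 26 to 55 counts across the samples.

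Klf5 (chr14:99298691-99315036, plus strand) was close to the limit of detection. Its WT samples 1 to 4 had 12, 19, 13 and 10 counts and its Hint1-/- samples had 10, 23, 19 and 14 counts. These ranges overlapped, and at this depth the interval was wide: the log2 fold change was 0.30 ± 0.30 (SE; edgeR, adjusted p = 0.529) and the 95% interval of the fold ran from 0.800 to 1.89. Without Hint1-/- sample 2 the log2 fold change was 0.096, without WT sample 4 it was 0.18, without WT sample 2 it was 0.50 and without Hint1-/- sample 1 it was 0.48, and none passed. A fold of 1.5 lay inside that interval, so a change of that size could not be seen or set aside at this depth.

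In the same samples, 16 of the 23 other KLF and SP factors listed could be tested. Klf9 (log2 fold change 0.22, adjusted p = 0.00152), Klf3 (0.19, adjusted p = 0.00257) and Klf10 (0.23, adjusted p = 0.0061) passed in edgeR, all at a higher level in Hint1-/- samples, and none of the 16 passed at a lower level. All 3 kept their side of the limit in every alternative setting. Klf3 is a repressor of the family, Klf9 is induced by glucocorticoids and Klf10 by TGF-β. With 16 genes, 3 past the limit is near the 21.5% of all genes tested that passed. The median of the 16 genes was 0.09.

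Tcf21 (chr10:22817281-22820174, minus strand) was the one factor past both limits. It had 19, 9, 18 and 14 counts in WT samples 1 to 4 and 44, 31, 34 and 28 counts in Hint1-/- samples 1 to 4. Each Hint1-/- sample lay above each WT sample, and the level was low in both. Mean levels were 0.718 ± 0.219 CPM (WT) and 1.65 ± 0.335 CPM (Hint1-/-; SD, n = 4 each), and the fold was 2.29 with a 95% interval of 1.61 to 3.25. The log2 fold change was 1.20 ± 0.24 (SE; edgeR, adjusted p = 0.00132). It ranged from 1.01 without WT sample 2 to 1.33 without WT sample 1, with adjusted p from 0.00065 (with no filter on low counts) to 0.00787 (without Hint1-/- sample 1) over the 16 alternative settings that kept the gene. Tcf21 passed the filter on low counts only with the help of its Hint1-/- samples, the group where it was higher. A filter of at least 10 counts in every sample removed Tcf21, since WT sample 2 had 9.

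Genes of the fibroblast and epicardial lineages, where Tcf21 is known, moved in both directions beside it. Of the 9 adventitial fibroblast markers, all tested, 3 were higher (Dcn, Lum and Pdgfra) and 2 lower (Dpt and Col14a1). Pdgfra, the receptor that marks fibroblasts, was at 5908 to 6178 counts in WT and 7341 to 8025 in Hint1-/- samples, whereas Dpt, dermatopontin, was at 953 to 1093 and 566 to 632. Of the 8 mesothelial and epicardial markers, 4 could be tested and 3 were higher (Aldh1a2, Krt19 and Tbx18), and the defining markers Wt1, Msln and Gpm6a had at most 2 counts in any sample. Of the others, Bnc1 had 2 to 6 counts and Upk3b 11 to 25, and Upk3b did not pass (log2 fold change -0.31, edgeR, adjusted p = 0.445). The part of these genes in the Tcf21 level was not tested. Dcn and Lum also stood in the list of modulated smooth muscle genes below.

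Twist1 (chr12:33957671-33959829, plus strand) had 725, 649, 658 and 624 counts in WT samples 1 to 4 and 666, 657, 717 and 621 counts in Hint1-/- samples 1 to 4. The genotypes overlapped nearly throughout. Its log2 fold change was 0.01 ± 0.05 (SE; edgeR, adjusted p = 0.894), with a sign that changed under other settings, and the 95% interval of the fold ran from 0.933 to 1.09. Twist2, its closest relative, passed at a lower level in Hint1-/- samples. Twist2 had 3005, 2632, 2932 and 3052 counts in WT samples 1 to 4 and 2387, 2278, 2458 and 2187 counts in Hint1-/- samples 1 to 4, with no overlap, and its log2 fold change was -0.31 ± 0.05 (SE; edgeR, adjusted p = 7.49e-05).

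Zeb2 (chr2:44983632-45117395, minus strand) had 4014, 4200, 3950 and 3876 counts in WT samples 1 to 4 and 4119, 4340, 4187 and 4470 counts in Hint1-/- samples 1 to 4. WT sample 2 lay within the range of the Hint1-/- samples, so that the genotypes overlapped. The log2 fold change was 0.10 ± 0.04 (SE; edgeR, adjusted p = 0.0419) and the fold was 1.08 with a 95% interval of 1.02 to 1.13. Zeb2 no longer passed in 7 of 17 alternative settings. These were upper-quartile normalization (adjusted p = 0.0637), library sizes without the 20 most abundant genes (0.0903), and the fits without WT sample 1 (0.0736), WT sample 3 (0.115), WT sample 4 (0.105), Hint1-/- sample 2 (0.109) or Hint1-/- sample 4 (0.136). Some exons of Zeb2 overlap those of its antisense partner Zeb2os. Since strand is not given in the sources used here, reads from the shared stretches cannot be told apart. Zeb2 is also known from macrophages, and the macrophage markers were lower in Hint1-/- samples in 6 of the 9 tested, as above; their part was not tested.

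Zeb1, the relative of Zeb2, moved the other way. Zeb1 had 2609, 2681, 2514 and 2445 counts in WT samples 1 to 4 and 1987, 2157, 2119 and 2025 counts in Hint1-/- samples 1 to 4, with every Hint1-/- sample below every WT sample. Zeb1 had a log2 fold change of -0.30 ± 0.04 (SE; edgeR, adjusted p = 1.26e-05). Zeb1 and Twist2 passed in all 17 alternative settings.

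Prrx1 (chr1:163245119-163313710, minus strand), the mesenchymal homeobox factor, had 7793, 8289, 7656 and 7382 counts in WT samples 1 to 4 and 8053, 8077, 8180 and 8342 counts in Hint1-/- samples 1 to 4. WT sample 2 lay among the Hint1-/- samples and the other WT samples lay below them. For Prrx1, the log2 fold change was 0.08 ± 0.04 (SE; edgeR, adjusted p = 0.115), and the unadjusted 95% interval of the fold ran from 1.00 to 1.11. Only without WT sample 2 did Prrx1 pass, with a log2 fold change of 0.11 (edgeR, adjusted p = 0.0213). This was not particular to Prrx1. Leaving out WT sample 2 gave 2909 genes past the limit in all, whereas leaving out any other sample gave 2258 to 2645. The deposited counts of Prrx1 were not whole numbers, as counting tools give where reads match more than 1 gene or transcript. Zeb2 also had a fractional count, in WT sample 1 (4014.02), and the 8 other factors had whole counts in every sample.

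The ratio of each factor to its relative was compared by sample as a description, chosen after the values were seen and without a test. It is a ratio of CPM, not corrected for length, and is read only between genotypes. The ratio of Zeb2 to Zeb1 was 1.54 to 1.59 in WT and 1.98 to 2.21 in Hint1-/- samples. The ratio of Twist1 to Twist2 was 0.204 to 0.247 in WT and 0.279 to 0.292 in Hint1-/- samples, and that of Klf4 to Klf2 was 4.99 to 6.18 and 6.42 to 7.67. The genotypes did not overlap in these 3 ratios. Each of them holds a gene (Zeb1, Twist2 or Klf4) whose samples already stood apart by genotype, so the ratios are no separate result. The ratio of Prrx1 to Prrx2 was 34.0 to 44.0 in WT and 38.0 to 49.9 in Hint1-/- samples, and these ranges overlapped.

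**Figure D3:**
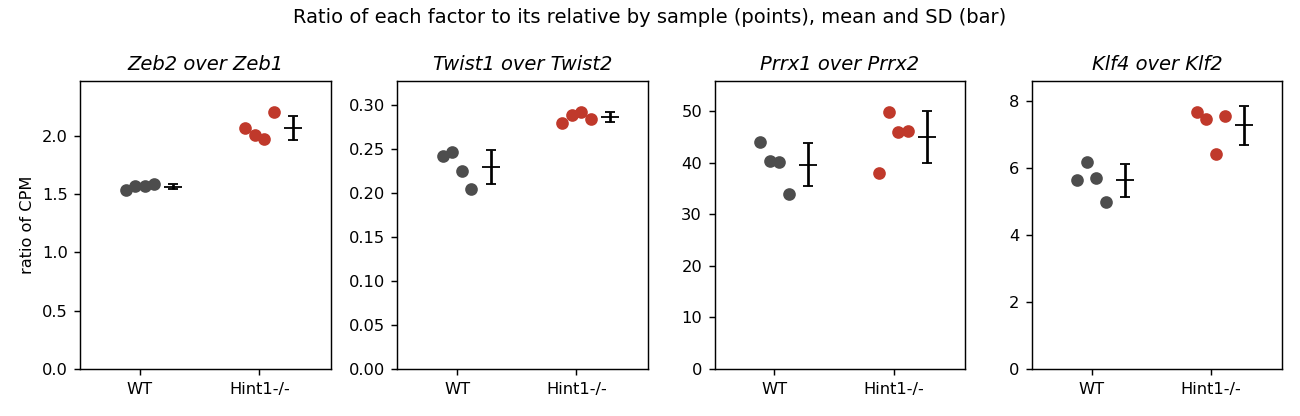
Ratio of CPM (y axis, from 0) of Zeb2 to Zeb1, Twist1 to Twist2, Prrx1 to Prrx2 and Klf4 to Klf2 in the 4 WT (gray) and 4 Hint1-/- (red) samples; points are samples and the bar is the mean with its SD. The genotypes are separate in 3 panels and overlap for Prrx1 over Prrx2, where the WT samples lie between 34.0 and 44.0 and the Hint1-/- samples between 38.0 and 49.9.

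Of the 16 bHLH partners and mesenchymal transition factors listed, 15 could be tested, 4 were higher and 2 (Zeb1 and Twist2) lower in Hint1-/- samples. Id2, whose protein dimerizes with bHLH factors and keeps them from DNA, was higher with a log2 fold change of 0.42 (edgeR, adjusted p = 0.000352), as was Tcf4, an E protein partner of Twist1 and Tcf21 (0.19, adjusted p = 0.000524). Id2 and Tcf4 were named after their values were seen. The other 2 that were higher were Foxc2 (0.23, adjusted p = 0.00287) and Id3 (0.14, adjusted p = 0.045). Id3 no longer passed in 8 of 17 alternative settings, among them the fits without WT sample 2 (0.129) or 3 (0.0992) and without Hint1-/- sample 1 (0.124), 2 (0.0986) or 3 (0.0918). The list's median was 0.01, and 21.5% of all genes tested passed.

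None of the 3 MEF2 genes passed the limit on the adjusted p. Mef2a (chr7:67231163-67372858, minus strand) had 2157, 2341, 2150 and 2231 counts in WT samples 1 to 4 and 2172, 2263, 2188 and 2257 counts in Hint1-/- samples 1 to 4. Mef2c (chr13:83504034-83667080, plus strand) had 436, 480, 441 and 464 counts in WT and 427, 473, 426 and 473 counts in Hint1-/- samples, and Mef2d (chr3:88142372-88172086, plus strand) had 2943, 2877, 2868 and 2893 counts in WT and 2905, 2967, 2846 and 2935 counts in Hint1-/- samples. The genotypes overlapped for each of them.

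The 95% interval of the fold ran from 0.957 to 1.06 for Mef2a, from 0.916 to 1.08 for Mef2c and from 0.969 to 1.06 for Mef2d, so that a change as large as 1.5-fold lay outside each interval. The adjusted p in edgeR was 0.864, 0.954 and 0.710 in that order. The log2 fold changes were 0.01, -0.01 and 0.02, and the signs of those of Mef2a and Mef2c changed under other settings. Some exons of Mef2a overlap Lysmd4 and some of Mef2d overlap 1700113A16Rik, both on the opposite strand. Without the strand, reads from the shared stretches cannot be told apart, and the length of these stretches was not measured. The shares of the 3 genes in the summed MEF2 level per length were also close: Mef2d made up 72.9% ± 0.913 in WT and 73.0% ± 0.324 in Hint1-/- samples, Mef2a 22.8% ± 0.747 and 22.7% ± 0.208, and Mef2c 4.36% ± 0.171 and 4.29% ± 0.180 (SD, n = 4 each). These shares use the union of a gene's exons as its length and are read only between genotypes. With the longest annotated transcript, Mef2d, Mef2a and Mef2c were at 25.6, 19.2 and 3.47 CPM per kilobase in WT, a smaller share for Mef2d.

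MEF2 proteins are held inactive by class IIa histone deacetylases and released by calcium and MAP kinase signals. Of the 15 MEF2 partners and regulators listed, 14 could be tested and 1 passed. Hdac7, a class IIa deacetylase, was at 2123 to 2217 counts in WT and 2233 to 2416 in Hint1-/- samples (log2 fold change 0.12, edgeR, adjusted p = 0.0214), and it no longer passed without WT sample 3 (adjusted p = 0.0619), Hint1-/- sample 1 (0.077) or Hint1-/- sample 4 (0.0669). Ppp3cb, a calcineurin subunit, had the next smallest p (log2 fold change -0.10, adjusted p = 0.0709) and passed with library sizes without the 20 most abundant genes (0.0365) and without Hint1-/- sample 3 (0.0276). The list's median was 0.02, and 21.5% of all genes tested passed.

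Levels were compared between factors after division by gene length (RPKM, here CPM per kilobase of the union of a gene's exons), and with this length the order of the 10 was the same in both genotypes. Klf4 stood first at 51.0 ± 1.41 RPKM in WT and 61.0 ± 1.46 RPKM in Hint1-/- samples (SD, n = 4), followed by Prrx1 at 33.6 ± 1.57 and 35.6 ± 0.533 RPKM and Mef2d at 23.1 ± 0.319 and 23.5 ± 0.459 RPKM. Twist1, Klf2, Zeb2 and Mef2a lay between 7.23 and 19.5 RPKM in WT. Mef2c was at 1.39 ± 0.0596 RPKM in WT.

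The last places were held by Tcf21 and Klf5. Tcf21 was at 0.306 ± 0.0931 RPKM in WT and 0.703 ± 0.143 RPKM in Hint1-/- samples, and Klf5 at 0.124 ± 0.0352 and 0.153 ± 0.0528 RPKM. No neighbours in this order overlapped between their 4 samples in either genotype. The order depended on the length, however. With the longest annotated transcript in place of the exon union, 6 of the 10 changed rank in WT, Zeb2, Twist1 and Mef2a became neighbours whose samples overlapped, and so did Tcf21 and Klf5. With that length the genotypes differed in order, since Prrx1 (57.0 RPKM) stood above Klf4 (51.3 RPKM) in WT, whereas Klf4 (61.4 RPKM) and Prrx1 (60.3 RPKM) overlapped in Hint1-/- samples.

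**Figure D4:**
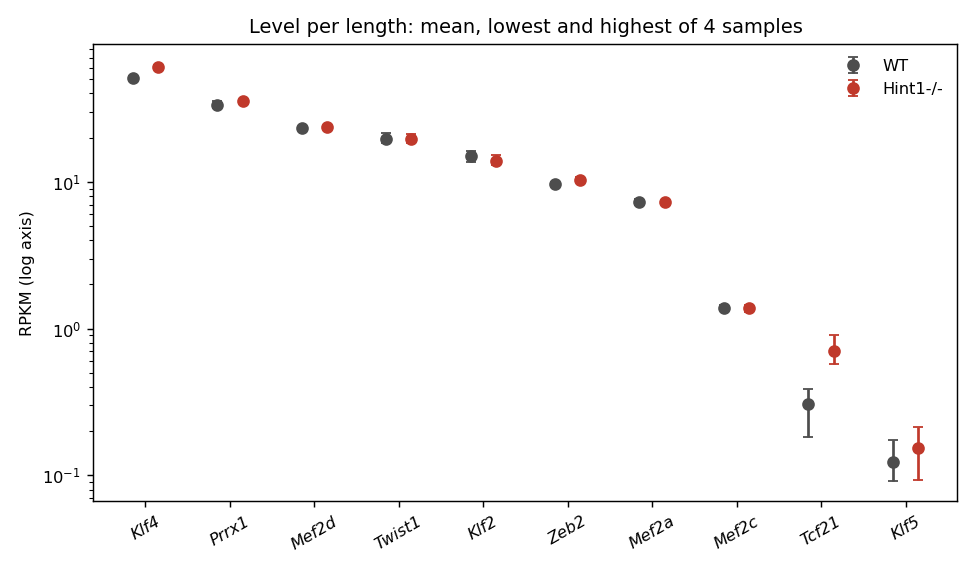
RPKM on a log axis of the 10 factors, ordered by the WT mean, in WT (gray) and Hint1-/- (red) MASMCs; points are means of 4 samples and bars run from the lowest to the highest sample. Levels fall from 51.0 RPKM (Klf4) to 0.124 RPKM (Klf5) in WT, and the genotypes are visibly apart for Klf4 and Tcf21.

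The genes whose pattern over the 8 samples was most like that of Klf4, by Pearson r of log2 CPM, were Rdh10 (r = 0.995), Itih5 (0.995), Kcne4 (0.993), Egln1 (0.992) and Gxylt2 (0.991). All 8 points of each share the split between genotypes, so these values describe the libraries and are given without a p. Egln1, the prolyl hydroxylase that marks hypoxia-inducible factors for destruction, was at 1515 to 1673 counts in WT and 2369 to 2698 in Hint1-/- samples. Rdh10, which makes retinaldehyde from retinol, was at 342 to 397 and 597 to 683 counts. That all 5 were higher in Hint1-/- samples, like Klf4, follows from their choice by r. Their log2 fold changes ran from 0.61 to 0.90.

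The factors act beside SRF and its coactivators, and 12 of the 14 symbols listed for that axis were in the tables. The 2 others are older symbols of Mrtfa and Mrtfb. Of the 11 genes tested, none was higher and 2 were lower in Hint1-/- samples, namely Csrp1 (log2 fold change -0.20, edgeR, adjusted p = 0.00147) and Fhl2 (-0.21, adjusted p = 0.00364), both LIM domain proteins that work with SRF. Srf itself was at 1632 to 1730 counts in WT and 1600 to 1752 in Hint1-/- samples, a log2 fold change of 0.0020 (adjusted p = 0.98) whose sign changed under other settings. Myocd, which encodes myocardin, had 8 to 14 counts in WT and 7 to 9 in Hint1-/- samples and did not pass the filter on low counts. With 11 genes, 2 past the limit is near the 21.5% of all genes tested that passed. The median of the 11 genes was 0.01.

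Contractile genes are among the known targets of these factors. Of the 15 contractile genes listed, all tested, 11 were lower and 1 (Smtn, smoothelin) higher in Hint1-/- samples, with a median log2 fold change of -0.31. Across all genes tested, 10.2% were lower and 11.2% higher. Of the 15 contractile genes, 4 were lower at both limits. Myh11, the smooth muscle myosin heavy chain, had a log2 fold change of -1.54, Actg2, an actin, of -1.20, Cnn1, calponin, of -1.12, and Des, desmin, of -0.61. The call of Des at the fold limit was lost without WT sample 2 (-0.55) or without Hint1-/- sample 2 (-0.54).

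Of the 17 modulated smooth muscle genes listed, all tested, 4 were higher and 6 lower in Hint1-/- samples, with a median log2 fold change of -0.04. Across all genes tested, 11.2% were higher and 10.2% lower. At both limits, Lum (lumican) and Dcn (decorin), proteoglycans of the collagen matrix, were higher with log2 fold changes of 0.88 and 0.83, and Acan (aggrecan), the proteoglycan of cartilage, was lower with -1.84 at 14 to 23 counts in WT and 2 to 6 in Hint1-/- samples. Acan passed the filter on low counts only through its WT samples, and a filter of at least 10 counts in every sample removed it.

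**Figure D5:**
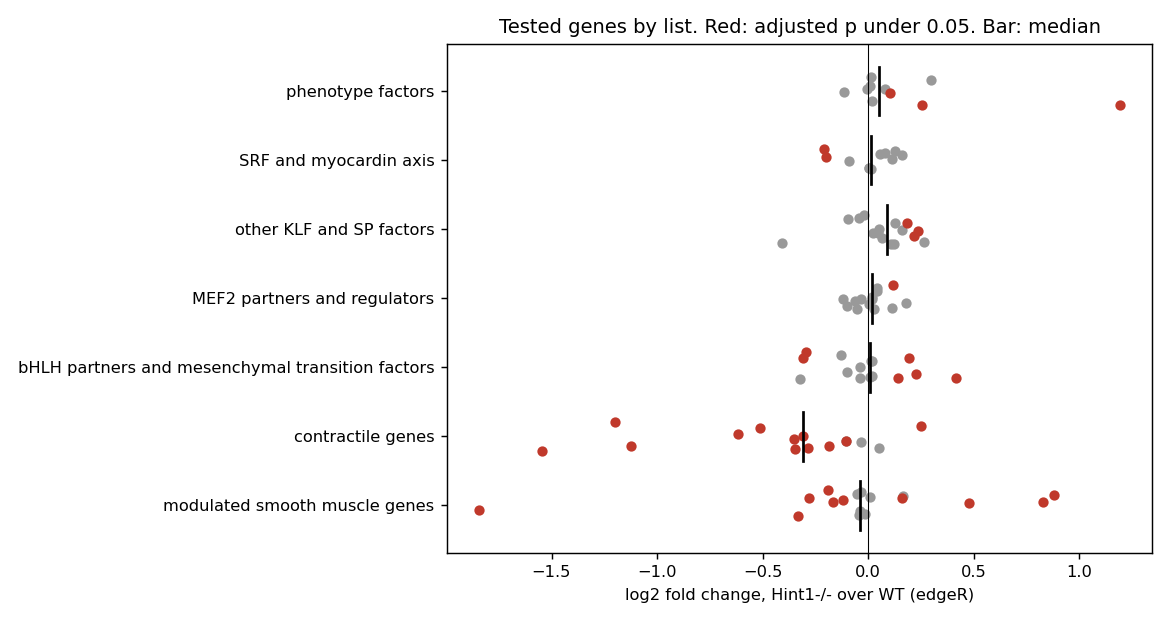
Log2 fold change (Hint1-/- over WT, x axis) of every tested gene of the 10 phenotype factors and of the 6 related gene lists (rows); red marks an adjusted p under 0.05 in edgeR and the black bar is the list's median. The contractile genes lie mostly to the left (median -0.31), whereas the medians of the other rows lie between -0.04 and 0.09.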

How the data were processed

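Per the labels and methods, RNA was extracted from PDGF-BB-treated MASMCs of WT and Hint1-/- mice and sequenced, and the authors deposited 1 table of estimated counts per gene symbol for each sample, not normalized. The submitters' processing notes name Bowtie2, RSEM 1.3.1, DESeq2 1.4.5 and mm10, whereas the study's methods name HISAT2 for mapping. Strandedness and molecular identifiers are not given in the sources used here.

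Estimated counts were rounded, genes were filtered with filterByExpr, libraries were scaled by TMM, and WT and Hint1-/- samples (n = 4 each) were compared with edgeR 4.0.16 (quasi-likelihood test, two-sided, Benjamini-Hochberg adjustment over 13535 genes). Calls required an adjusted p under 0.05 and, at both limits, a fold change over 1.5. SE was the log2 fold change over the square root of F. Levels per length used GENCODE M21, and log2 CPM had a prior count of 2. The test was tried on simulated counts whose changes were larger than those of Klf4 and Zeb2. That trial does not bear on changes as small as theirs.

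Genes named were all 10 factors, Hint1, those of each list called at both limits (or the 2 with the smallest p) and the 5 genes most like Klf4. Others are said to be chosen after their values were seen, or stand beside a factor as a relative, regulator or marker. The factors and lists were chosen with earlier results of these data known. Alternatives were other normalizations, filters, limma-voom 3.58.1, DESeq2 1.42.0, unrounded counts, a replicate block and leaving out each sample, and, added after seeing the data, another gene length.

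No pair of the 12 within a genotype agreed within counting noise (chi-square per gene 2.10 to 5.47), so none was treated as 1 library deposited again. This does not show that the samples are separate cultures or mice.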

Additional observations from a re-analysis of the deposited data

How the results depend on the processing

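Tcf21 and Klf4 kept their direction and passed the limit on the adjusted p in every alternative that held them. The count of factors past both limits was 1, and it was 0 with at least 10 counts in every sample, a filter that removed Tcf21. The count of MEF2 partners past the limit was 1 and became 2 with library sizes without the 20 most abundant genes and 2 with the replicate number as a block, and leaving out 1 sample gave 0 to 3. All other counts of factors, lists and genes stayed within 1.5 times of their value. Among single factors not past the limit, signs changed for Mef2a (-0.0067) and Twist1 (-0.0040) with library sizes without the 20 most abundant genes, and leaving out 1 sample gave log2 fold changes of -0.0041 to 0.036 for Mef2a, -0.032 to 0.020 for Mef2c and -0.023 to 0.060 for Twist1. With the replicate block, 3082 genes passed the limit (2907 without it) and 382 passed both (383), and no factor changed its call. The deviations of same-numbered samples correlated by 0.183, 0.136, -0.049 and 0.063, so not every pair was above 0.1, and the numbers were not taken as pairs. As a hint from the data, WT samples 1, 2 and 4 correlated best with the Hint1-/- sample of their own number and WT sample 3 with Hint1-/- sample 1. Depth limited Klf5 and Tcf21, with at most 23 and 44 counts (Klf5 ran from 0.096 to 0.50 on leaving out 1 sample). The samples' origin and the other cell types limit every result here. Among the factors, the missing strand of the reads limits Mef2a, Mef2d and Zeb2, whose exons overlap those of another gene. The cause of these shifts was not tested.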

Other observations

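Over the 20 groups of 4 samples (10 factors in each genotype), no sample lay far from the other 3 by Dixon's test at the 95% level, where chance gives about 1 group in 20.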
